A study of Mus musculus with 28 samples.

Results

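The genes described here are the amino acid transporter genes of 6 solute carrier families, Slc1a, Slc3a, Slc7a, Slc36a, Slc38a and Slc43a. A gene was taken when a probe set carried a single symbol made of one of these names and a number. Of its probe sets, the most variable over all arrays, by SD, stood for the gene. This gave 40 genes of the 18193 measured, from 86 of 45101 probe sets: 7 in Slc1a, 2 in Slc3a, 15 in Slc7a, 4 in Slc36a, 9 in Slc38a and 3 in Slc43a. They were described by cell line, glucose and time.

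Cells take up amino acids through carriers that differ in substrate and coupling. The Slc7a light chains LAT1 (Slc7a5), y+LAT1 (Slc7a7), y+LAT2 (Slc7a6) and xCT (Slc7a11) are exchangers that reach the cell surface bound to a glycoprotein heavy chain, 4F2hc (Slc3a2). Slc7a1, Slc7a2 and Slc7a3 carry arginine, lysine and ornithine without such a partner. Slc38a1, Slc38a2 and Slc38a4 are sodium-coupled carriers of small neutral amino acids. Slc36a1, Slc38a7 and Slc38a9 act at the lysosome, where Slc38a9 also reports arginine to the growth kinase mTORC1. Slc1a1, Slc1a2 and Slc1a3 carry glutamate, and Slc1a4 and Slc1a5 exchange neutral amino acids. Slc43a1 and Slc43a2 carry large neutral amino acids, whereas Slc43a3 is known as a purine nucleobase carrier despite its family.

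The data were 28 Affymetrix arrays of total RNA from mouse fibroblast cultures, in 14 groups of 2 arrays labelled as biological replicates. The lines were NIH3T3 K-ras, called K-ras from here on and named for the Ras oncogene, and NIH3T3, an immortalised mouse embryonic fibroblast line. Both had 4 mM glutamine and newborn calf serum in the growth medium. Cultures were collected 18 h after seeding at the change of medium (0 h, 25 mM glucose), and 24, 48 and 72 h later at 1 mM or at 25 mM glucose. With 1 line of each kind, an effect of K-ras and any other difference between these lines cannot be told apart. The labels used here do not say how the K-ras line was made. The design compares the lines, the glucose concentrations and the times.

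Every value below is a log2 ratio of a probe set to its own median over the 28 arrays. Differences between groups can be read from it, and levels between genes cannot. Because the level is removed, fibroblast markers could be compared between lines but not checked for presence. The mean of 9 fibroblast markers ranged from -1.09 to 1.15 over K-ras arrays and from -1.64 to 1.27 over NIH3T3 arrays. A total of 6 arrays had the expression profile of the other line: replicate 1 of K-ras at 0 h, at 1 mM and 48 h and at 1 mM and 72 h, both replicates of NIH3T3 at 1 mM and 24 h, and replicate 1 of NIH3T3 at 1 mM and 48 h. Il33, an alarmin cytokine, lay between -6.14 and -5.64 on these 3 K-ras arrays and between 0.98 and 3.42 on these 3 NIH3T3 arrays. On arrays in place it was 1.26 to 3.11 in K-ras and -6.52 to -5.52 in NIH3T3. Labels were kept, and results are given with and without these 6 arrays. The correlation between the replicates of a group ranged from -0.53 to 0.88 over all genes, with a median of 0.27. The added hybridisation control bioC was below -0.6 on 12 arrays, all labelled NIH3T3, among them every NIH3T3 array at 25 mM. The mean of 6 epithelial markers had a lowest, median and highest value of -0.84, -0.65 and 0.87 on K-ras arrays, and of -0.79, 0.33 and 0.74 on NIH3T3 arrays. Krt14, a keratin among them, was -4.58 to -3.90 on arrays with the K-ras profile and 0.95 to 2.49 on arrays with the NIH3T3 profile, and its absence could not be checked. The mean of 3 fat cell markers had a median of 0.48 on K-ras arrays and -0.05 on NIH3T3 arrays. The part of such cells in the line differences below was not tested. K-ras 25 mM 72 h replicate 1 stood apart from the other arrays, with a bioC ratio of 2.98 and an interquartile range over probe sets of 0.654.

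Stretches of genome next to the transcript start are shown for Slc7a11 and Slc1a4, 2 of the members described below for their high values on few arrays, and for the lysosomal carriers Slc36a1 and Slc38a7. They were picked after their values were seen. Promoter windows from RefSeq (GRCm38.p6), 250 bases before to 50 after a start, were at hand for 29 of the 40 genes. The C/EBP-ATF response element, searched as TGATGNAA on both strands, is a binding site of the stress factor ATF4. It was in 3.97% of 32851 windows of all genes, and among the members in those of Slc7a11, Slc1a4 and Slc7a7. The window of Slc7a11 held 2 matches, their first bases at -66 and -47 from the start, and that of Slc1a4 held 1 at -4. Slc7a7 also held it, and its mean glucose difference was negative (-0.40 ± 0.14). The E-box CACGTG, bound by TFEB, a regulator of lysosomal genes, and by factors of the Myc family, was in 7.15% of all windows and in those of 7 members, namely Slc36a1 and Slc38a7 and also Slc1a6, Slc1a7, Slc7a14, Slc38a5 and Slc43a1, of which Slc1a6 and Slc1a7 are glutamate carriers. The matches to 1 of these motifs are in capitals in the stretches of 150 bases shown here, which run from 120 before to 30 after the start. They lie at chr3:50443584-50443733 and chr11:20332684-20332833, both on the minus strand, at chr11:55204220-55204369 on the plus strand and at chr8:95853462-95853611 on the minus strand. A match describes the letters only.
Slc7a11: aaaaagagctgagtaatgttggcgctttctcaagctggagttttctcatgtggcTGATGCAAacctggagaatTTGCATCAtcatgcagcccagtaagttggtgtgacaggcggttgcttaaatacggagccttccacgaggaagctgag
Slc1a4: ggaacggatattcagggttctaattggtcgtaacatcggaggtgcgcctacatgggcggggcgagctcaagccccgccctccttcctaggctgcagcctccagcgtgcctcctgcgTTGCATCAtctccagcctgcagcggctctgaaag
Slc36a1: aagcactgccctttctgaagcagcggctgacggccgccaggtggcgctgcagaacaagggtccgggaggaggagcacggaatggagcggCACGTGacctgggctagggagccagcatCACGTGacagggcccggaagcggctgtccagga
Slc38a7: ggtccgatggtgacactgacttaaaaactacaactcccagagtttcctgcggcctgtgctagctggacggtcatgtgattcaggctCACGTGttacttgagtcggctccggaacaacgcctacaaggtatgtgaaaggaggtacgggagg

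The 40 genes varied over the 28 arrays to very different extents. The SD of Slc7a2 was 2.15, above that of 99.8% of all genes, and those of Slc38a4 and Slc43a3 were 1.30 and 0.918. Slc7a11 (0.872), Slc38a7 (0.865), Slc7a5 (0.800) and Slc1a4 (0.783) came next. The median SD of the 40 genes was 0.392, against 0.324 for all genes, and 18 members lay below 0.324. The smallest SDs were 0.146 for Slc7a8, 0.162 for Slc7a9 and 0.171 for Slc38a5. Of the 40 genes, 10 passed an adjusted p of 0.05 in at least 1 of 19 comparisons and 30 passed in none. Of all genes, 18.6% passed in at least 1. The 10 were Slc1a2 and Slc1a3, Slc7a2, Slc7a3, Slc7a5 and Slc7a7, Slc38a1, Slc38a6 and Slc38a7, and Slc43a3.

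**Figure D1:**
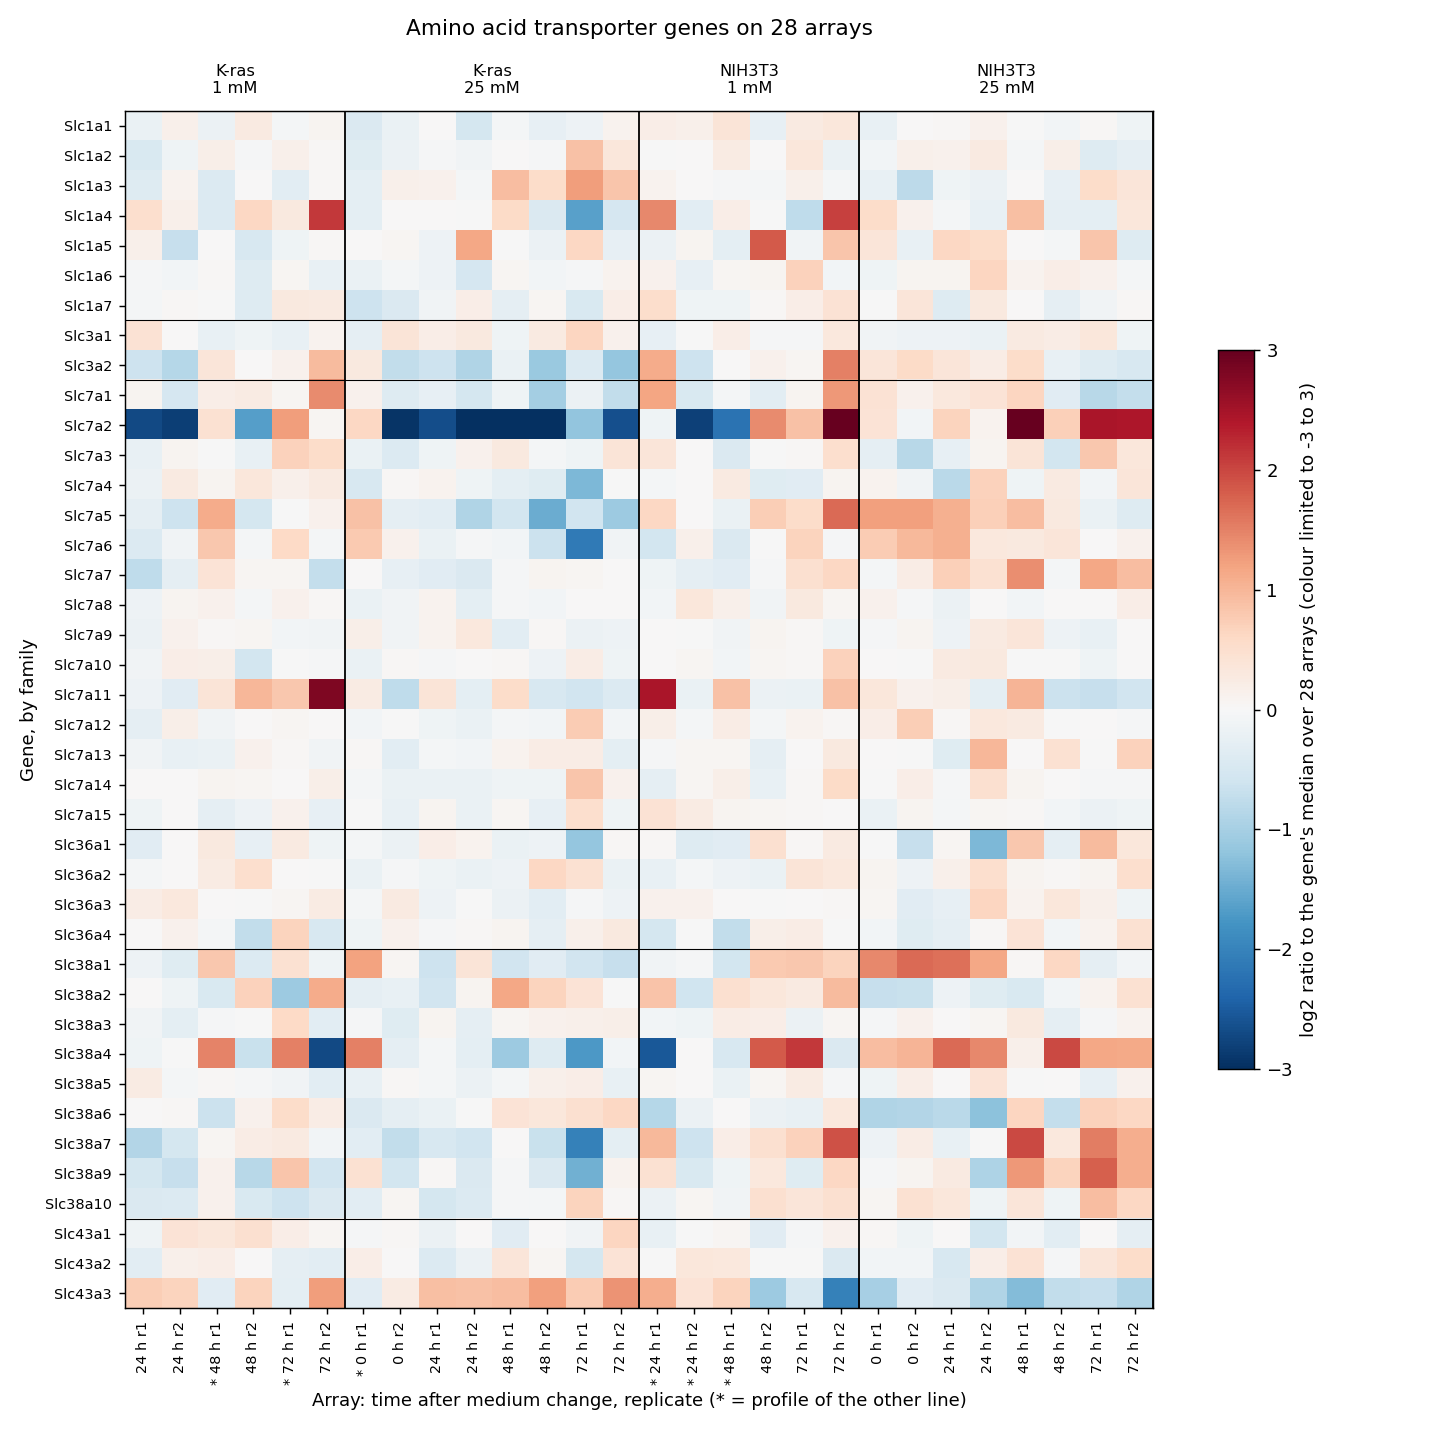
Log2 ratio to the gene's median over 28 arrays for the 40 transporter genes (rows, by family) on each array (columns, by line, glucose and time), with colour limited to -3 to 3. Slc7a2 and Slc38a4 change colour between the lines, and an asterisk marks the 6 arrays with the profile of the other line.

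At 25 mM glucose, K-ras arrays held less mRNA of the carriers Slc7a2, Slc38a7, Slc7a5, Slc38a1 and Slc7a7 than NIH3T3 arrays and more of Slc43a3 and Slc1a3. In the mean difference over 0, 24, 48 and 72 h, 2 of the 40 genes were called higher and 5 lower, at an adjusted p under 0.05 (limma, Benjamini-Hochberg over all genes). Of all genes, 5.67% were called higher and 5.67% lower, or 11.3% in either direction. At an unadjusted p of 0.05 it was 13 members and 24.7% of all genes. The median difference of the members was -0.15, with 10 positive and 30 negative, against -0.04 for all genes, of which 57.5% were negative. In these cultures, fewer cells of a kind and less RNA per cell cannot be told apart. The bioC split coincided with the line at 25 mM, so its part and that of the line cannot be told apart. With bioC as a block, 0 members were called (limma), as was 0% of all genes. That fit takes the bioC effect from NIH3T3 at 1 mM and 48 h and at 1 mM and 72 h, the only groups with arrays of both bioC levels, and the high array at 48 h is the one with the K-ras profile.

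Slc7a2, the cationic carrier CAT-2, differed most. Its lowest, median and highest values were -3.37, -2.80 and 0.63 on the 8 K-ras arrays, and -0.08, 0.69 and 3.26 on the 8 NIH3T3 arrays. The K-ras array at 0.63 was replicate 1 of 0 h, which had the NIH3T3 profile. On the other 7 K-ras arrays Slc7a2 was at most -1.18, below every NIH3T3 array. The mean difference was -3.56 ± 0.66 (SE; adjusted p = 0.00492), and -4.01 ± 0.46 without the 6 arrays. Its 4 probe sets ranged from -3.56 to -0.49, and their mean gave -1.82 (adjusted p = 0.0101). With the bioC block the difference was -0.21 (adjusted p = 0.991). The other cationic carriers did not pass: Slc7a1, CAT-1, had a difference of -0.40 ± 0.27 and Slc7a3, CAT-3, of 0.02 ± 0.15.

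Among the light chains that pair with 4F2hc, Slc7a5 ran from -1.48 over a median of -0.56 to 0.88 on K-ras arrays, and from -0.39 over 0.83 to 1.23 on NIH3T3 arrays. Its difference was -1.15 ± 0.26 (adjusted p = 0.00999), and it has 1 probe set. The array at 0.88 was again K-ras 0 h replicate 1, and the groups overlapped also without it, since NIH3T3 arrays at 72 h lay at -0.19 and -0.39. Slc7a7 ran from -0.44 over -0.01 to 0.08 on K-ras arrays, and from -0.05 over 0.58 to 1.40 on NIH3T3 arrays. Its difference was -0.71 ± 0.17 (adjusted p = 0.0130), its other probe set gave -0.21, and the mean of both -0.46 (adjusted p = 0.0132). Slc7a6 had a difference of -0.78 ± 0.25 (adjusted p = 0.0516). Its lowest K-ras value, -2.11, was that of 72 h replicate 1, the array that stood apart, and the next was -0.65. The heavy chain Slc3a2 had a median of -0.69 on K-ras arrays and 0.29 on NIH3T3 arrays, with a difference of -0.73 ± 0.27 (adjusted p = 0.0884). Without the 6 arrays both passed, Slc7a6 at -0.86 ± 0.26 (adjusted p = 0.0349) and Slc3a2 at -0.86 ± 0.23 (adjusted p = 0.0172). Slc7a11, the cystine-glutamate exchanger, had a difference of -0.10 ± 0.38.

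Of the sodium-coupled neutral carriers, Slc38a1 ran from -0.70 over -0.46 to 1.20 on K-ras arrays, and from -0.26 over 0.89 to 1.70 on NIH3T3 arrays. Its difference was -0.93 ± 0.23 (adjusted p = 0.0157), and its 2 probe sets gave -0.93 and -0.65. Leaving out K-ras 0 h replicate 2 ended that call, at an adjusted p of 0.0557. Slc38a4 lay between -1.72 and -0.07 on the 7 K-ras arrays in place, and at 1.51 on the other. On NIH3T3 arrays it lay between 0.15 and 1.99, above all 7. Its difference of -1.49 ± 0.61 did not pass over all arrays (adjusted p = 0.137) and did without the 6 arrays (-1.71 ± 0.39, adjusted p = 0.00687). Slc38a2 had a difference of 0.39 ± 0.28. At the lysosome, Slc38a7, which exports glutamine and asparagine, ran from -2.03 over -0.53 to 0.01 on K-ras arrays, and from -0.23 over 0.27 to 1.97 on NIH3T3 arrays. Its difference was -1.23 ± 0.29 (adjusted p = 0.0131). Slc38a9 had a difference of -0.81 ± 0.29 (adjusted p = 0.0828) and Slc36a1 of -0.15 ± 0.23. The 7 probe sets of Slc38a9 ranged from -0.81 to -0.02.

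The genes higher in K-ras arrays were of other roles. Slc43a3 lay between -0.33 and 1.34 on K-ras arrays, with a median of 0.90, and between -1.30 and -0.35 on NIH3T3 arrays, with a median of -0.82. It was the only member whose 8 K-ras and 8 NIH3T3 arrays at 25 mM did not overlap, where 0.374% of all genes had every K-ras array higher. The lowest K-ras array and the highest NIH3T3 array, at -0.33 and -0.35, nearly met. The array at -0.33 was again the one with the NIH3T3 profile, and the next K-ras array was at 0.25. The difference was 1.54 ± 0.29 (adjusted p = 0.00509), and -0.11 (adjusted p = 0.986) with the bioC block. Slc1a3, the glutamate carrier GLAST, ran from -0.29 over 0.36 to 1.26 on K-ras arrays, and from -0.78 over -0.16 to 0.54 on NIH3T3 arrays. Its difference was 0.52 ± 0.12 (adjusted p = 0.0111), and its 6 probe sets ranged from -0.03 to 0.52. With the mean of its probe sets the call was lost, at 0.16 (adjusted p = 0.131).

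**Figure D2:**
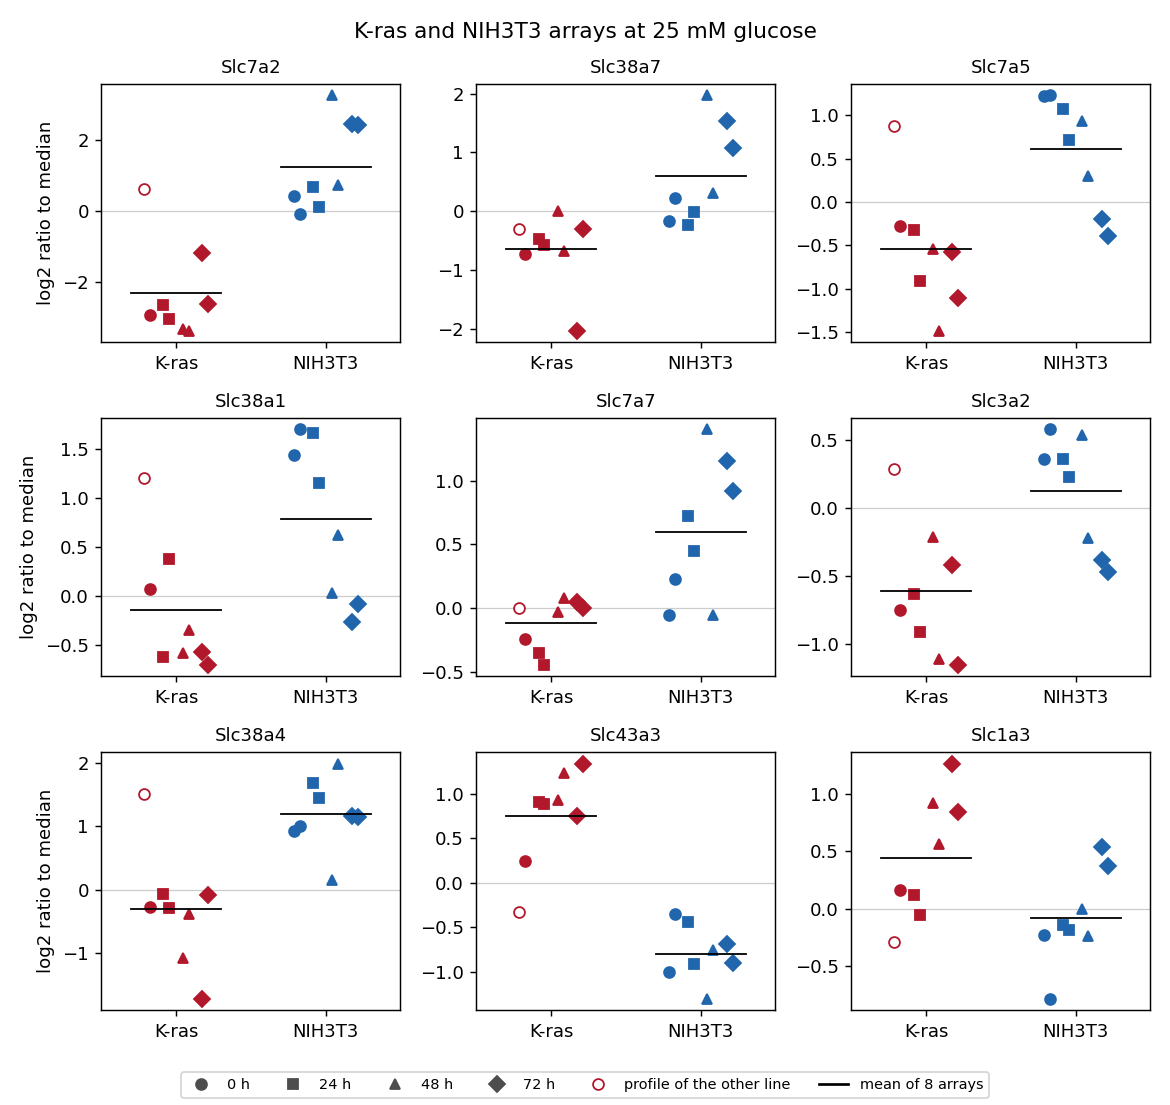
Log2 ratio to median on the 8 K-ras and 8 NIH3T3 arrays at 25 mM glucose for 9 transporter genes, with a symbol per time and a bar at the mean. The open symbol, K-ras 0 h replicate 1, lies among the NIH3T3 arrays for Slc7a2, Slc7a5, Slc38a1 and Slc38a4.

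The other 33 members had mean line differences between -1.49 (Slc38a4) and 0.43 (Slc38a6) that did not pass. Carriers best known from epithelia or brain were among them. Slc3a1, the heavy chain rBAT of the kidney, was at 0.18 ± 0.12 and its light chain Slc7a9 at -0.04 ± 0.10. The neuronal glutamate carrier Slc1a1 was at -0.16 ± 0.11, and its values ran from -0.52 to 0.39 over all 28 arrays. Slc1a5, the main glutamine exchanger ASCT2, was at -0.06 ± 0.29, and its other probe set gave -0.6. The probe set used had single high arrays, 1.16 at K-ras 25 mM 24 h replicate 2 and 1.85 at NIH3T3 1 mM 48 h replicate 2. Of the large neutral amino acid carriers, Slc43a1 (LAT3) was at 0.16 ± 0.13 and Slc43a2 (LAT4) at -0.11 ± 0.15. The proton-coupled carrier Slc36a4 was at 0.01 ± 0.17.

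The called counts depended on the arrays kept. Without the 6 arrays, 2 members were higher and 9 lower in the mean over times, where 17.9% of all genes were called. The 7 genes named above were among these 11, with Slc38a4, Slc38a9, Slc7a6 and Slc3a2. At 25 mM that fit leaves out only K-ras 0 h replicate 1, which was chosen for its NIH3T3 profile, so wider line differences follow from the choice. At single times, Slc1a2, the glutamate carrier GLT-1, was the only member called. At 72 h it was 0.87 and 0.33 on K-ras arrays and -0.38 and -0.27 on NIH3T3 arrays, a difference of 0.93 ± 0.21 (adjusted p = 0.0459). Of all genes, 0.726% were called at 72 h. The counts at an unadjusted p were 10 members and 21.6% of all genes. The value 0.87 is from the K-ras array that stood apart, and without it the difference was 0.66 and did not pass. The call held in 1 of the 4 fits that left out 1 of these arrays. The 5 probe sets of Slc1a2 ranged from 0.07 to 0.93, and their mean gave 0.37 and no call (adjusted p = 0.144). In limma, 0 members were called at 0, 24 and 48 h, where 0.011%, 0.066% and 0.0165% of all genes were. At an unadjusted p of 0.05 the members called at these times were 2, 7 and 7, against 4.68%, 15.3% and 10.3% of all genes. With the 6 arrays left out, 0 members were called at 0 h, 4 at 24 h, 4 at 48 h and 5 at 72 h, where 2.25%, 6.29%, 5.49% and 8.89% of all genes were. At 0 h that fit keeps replicate 2 as the only K-ras array, which is assumed to vary like the other groups. Slc7a2 had line differences of -1.32, -3.24, -5.34 and -4.33 at 0, 24, 48 and 72 h, and Slc43a3 of 0.63, 1.58, 2.11 and 1.84. The means at 0 h include K-ras replicate 1, which had the NIH3T3 profile. Replicates 1 and 2 were 0.63 and -2.93 for Slc7a2 there, and -0.33 and 0.25 for Slc43a3. Without replicate 1 the Slc7a2 difference at 0 h was -3.11. Its other probe sets reached up to 0, -0.04, -0.65 and -1.26 at the 4 times.

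The arrays with the profile of the other line mostly lay toward that line in the 3 members with the largest SD. Slc43a3 was -0.33, -0.33 and -0.30 on the 3 such K-ras arrays, and 1.10, 0.41 and 0.67 on the 3 such NIH3T3 arrays. Slc7a2 was 0.63, 0.46 and 1.26 on these K-ras arrays, and -0.12, -2.79 and -2.21 on these NIH3T3 arrays. Slc38a4 was 1.51, 1.48 and 1.52 on these K-ras arrays, and -2.54, 0.01 and -0.48 on these NIH3T3 arrays. For another member, Slc7a5, it was 0.88, 1.12 and -0.02, and 0.62, 0.02 and -0.19. K-ras arrays in place had at most -0.28 of Slc7a5 at 25 mM and 0.14 at 1 mM. At 1 mM and 72 h, K-ras against NIH3T3 gave 0 called members in limma, where 0.253% of all genes were called. The counts at an unadjusted p were 3 members and 12.6% of all genes. With the 6 arrays left out, 3 were called, where 8.09% of all genes were: Slc43a3 (2.52 ± 0.50, adjusted p = 0.00753), Slc7a11 (2.47 ± 0.61, adjusted p = 0.0244) and Slc38a4 (-3.55 ± 0.89, adjusted p = 0.0269). The K-ras group then holds a single array, replicate 2, which is assumed to vary like the other groups. This array also had one of the 3 highest medians of the stress response list described below, at 0.90, and its part was not tested.

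Over time in NIH3T3 at 25 mM, mRNA of Slc38a6, Slc7a3 and Slc1a3 rose and that of Slc38a1 fell between 0 and 72 h. Of the 40 genes 3 were higher and 1 lower at 72 h, where 3.68% of all genes were higher and 1.84% lower, or 5.52% together. The counts at an unadjusted p were 9 members and 20.3% of all genes. The median difference of the members was 0.06, against -0.07 for all genes. All 8 arrays had the NIH3T3 profile and low bioC. Slc38a1 was 1.44 and 1.70 at 0 h, 1.66 and 1.15 at 24 h, 0.03 and 0.62 at 48 h, and -0.26 and -0.08 at 72 h. Its 72 h arrays lay below all 4 arrays of 0 and 24 h, with a difference of -1.74 ± 0.46 from 0 h (adjusted p = 0.0369). The other probe set gave -0.74, and the mean of both lost the call at -1.24 (adjusted p = 0.0530). Slc38a6, a member of the same family whose transport is less well described, was -0.90 and -0.87 at 0 h, -0.80 and -1.23 at 24 h, 0.65 and -0.71 at 48 h, and 0.69 and 0.63 at 72 h. The arrays at 72 h were both above all arrays of 0 and 24 h, while the 48 h replicates lay apart. Its difference was 1.54 ± 0.35 from 0 h (adjusted p = 0.0167), its other probe set gave -0.04, and the mean of both 0.75 (adjusted p = 0.0229).

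Slc7a3 was -0.26 and -0.84 at 0 h, -0.25 and 0.09 at 24 h, 0.39 and -0.56 at 48 h, and 0.81 and 0.35 at 72 h. Its difference of 72 from 0 h was 1.13 ± 0.31 (adjusted p = 0.0401). Slc1a3 was -0.23 and -0.78 at 0 h, -0.14 and -0.18 at 24 h, 0.00 and -0.24 at 48 h, and 0.54 and 0.37 at 72 h. Both 72 h arrays lay above the 6 earlier ones, with a difference of 0.96 ± 0.24 (adjusted p = 0.0275), and its other probe sets reached down to -0.18. Their mean lost the call, at 0.29 (adjusted p = 0.215). None of these 4 calls held in more than 1 of the 4 fits that left out 1 of the arrays compared, and only that of Slc1a3 held in any.

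Several other members had arrays at 72 h that did not overlap those at 0 h, without passing the test. Slc7a5 was -0.19 and -0.39 at 72 h and 1.22 and 1.23 at 0 h (difference -1.52 ± 0.52, adjusted p = 0.0982), and it passed without the 6 arrays, which are in other groups and bear on the common spread (adjusted p = 0.0281). In that fit 5 members were called, where 10.7% of all genes were. Slc3a2 had a difference of -0.89 ± 0.53, Slc7a1 of -1.07 ± 0.53 and Slc7a11 of -0.88 ± 0.77. The arrays of 13 members were all higher at 72 h than at 0 h and those of 9 all lower, shares that the whole table had at 27.1% and 34.2%. Among lysosomal carriers, Slc38a9 was 1.80 and 1.09 at 72 h and -0.04 and 0.09 at 0 h (difference 1.42 ± 0.58, adjusted p = 0.171), and its 7 probe sets ranged from 0.02 to 1.42. Slc38a7 was 1.54 and 1.08 at 72 h and -0.16 and 0.23 at 0 h, and Slc36a1 was 0.96 and 0.35 at 72 h and -0.01 and -0.70 at 0 h. Slc7a2 was 2.45 and 2.42 at 72 h and 0.42 and -0.08 at 0 h (difference 2.26 ± 1.31, adjusted p = 0.362). Slc38a2 had a difference of 0.95 ± 0.55.

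From 24 to 72 h in NIH3T3, Slc38a6 alone was called (1.68 ± 0.35, adjusted p = 0.0130), where 6.15% of all genes were called in either direction. Its other probe set gave -0.35, and the mean of both 0.66 (adjusted p = 0.0424). The call was lost in most fits that left out 1 of the arrays compared, with differences from 1.46 to 1.89. With an unadjusted p it was 11 members and 22.8% of all genes. Slc38a1 had a difference of -1.57 ± 0.46 (adjusted p = 0.0526) and Slc38a9 of 1.78 ± 0.58 (adjusted p = 0.0765). Both passed in the fit without the 6 arrays, Slc38a1 with an adjusted p of 0.00784 and Slc38a9 of 0.0423, where 10.5% of all genes were called. Over all arrays the 7 probe sets of Slc38a9 ranged from -0.57 to 1.78, and the 2 of Slc38a1 from -1.57 to -0.75. From 0 to 24 h, 0 members were called in limma, where 0.0055% of all genes were, and at an unadjusted p of 0.05 it was 0 members and 4.55% of all genes. From 0 to 48 h, 0 members were called in limma, where 0.0605% of all genes were, and at an unadjusted p it was 2 members and 11.6% of all genes. The largest differences from 0 to 48 h were 1.82 ± 1.31 for Slc7a2 and -1.24 ± 0.46 for Slc38a1 (adjusted p = 0.286).

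In K-ras cells at 25 mM the change from 24 to 72 h had 0 called members in limma, where 0% of all genes were called. At an unadjusted p of 0.05 it was 4 members and 10.2% of all genes. Slc1a3 was 1.26 and 0.84 at 72 h and 0.12 and -0.05 at 24 h, a difference of 1.02 ± 0.24 (adjusted p = 0.441). Slc38a10 was 0.66 and 0.03 at 72 h and -0.52 and -0.40 at 24 h, a difference of 0.81 ± 0.27. The values 1.26 and 0.66 were those of 72 h replicate 1, the array that stood apart. Slc38a6 was -0.44 and -0.27 at 0 h, -0.19 and -0.01 at 24 h, 0.40 and 0.33 at 48 h, and 0.48 and 0.61 at 72 h. Slc38a7 was -2.03 and -0.30 at 72 h, and Slc36a1 -1.16 and 0.04. For both genes the low value was that of replicate 1, the array that stood apart. The test of a different change in the lines, K-ras minus NIH3T3, called 0 members in limma, where 0.0055% of all genes were called. With an unadjusted p it was 5 members and 14.6% of all genes. Among its largest values were 1.20 ± 0.29 for Slc1a2 (adjusted p = 0.183), -2.24 ± 0.82 for Slc38a9 and -2.01 ± 0.66 for Slc36a1 (adjusted p = 0.244). For each of these 3 genes, K-ras 72 h replicate 1 gave the most extreme K-ras value at 25 mM, at 0.87, -1.44 and -1.16 in the same order. In this test the 7 probe sets of Slc38a9 ranged from -2.24 to 0.7, and the 5 of Slc1a2 from 0.09 to 1.2.

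**Figure D3:**
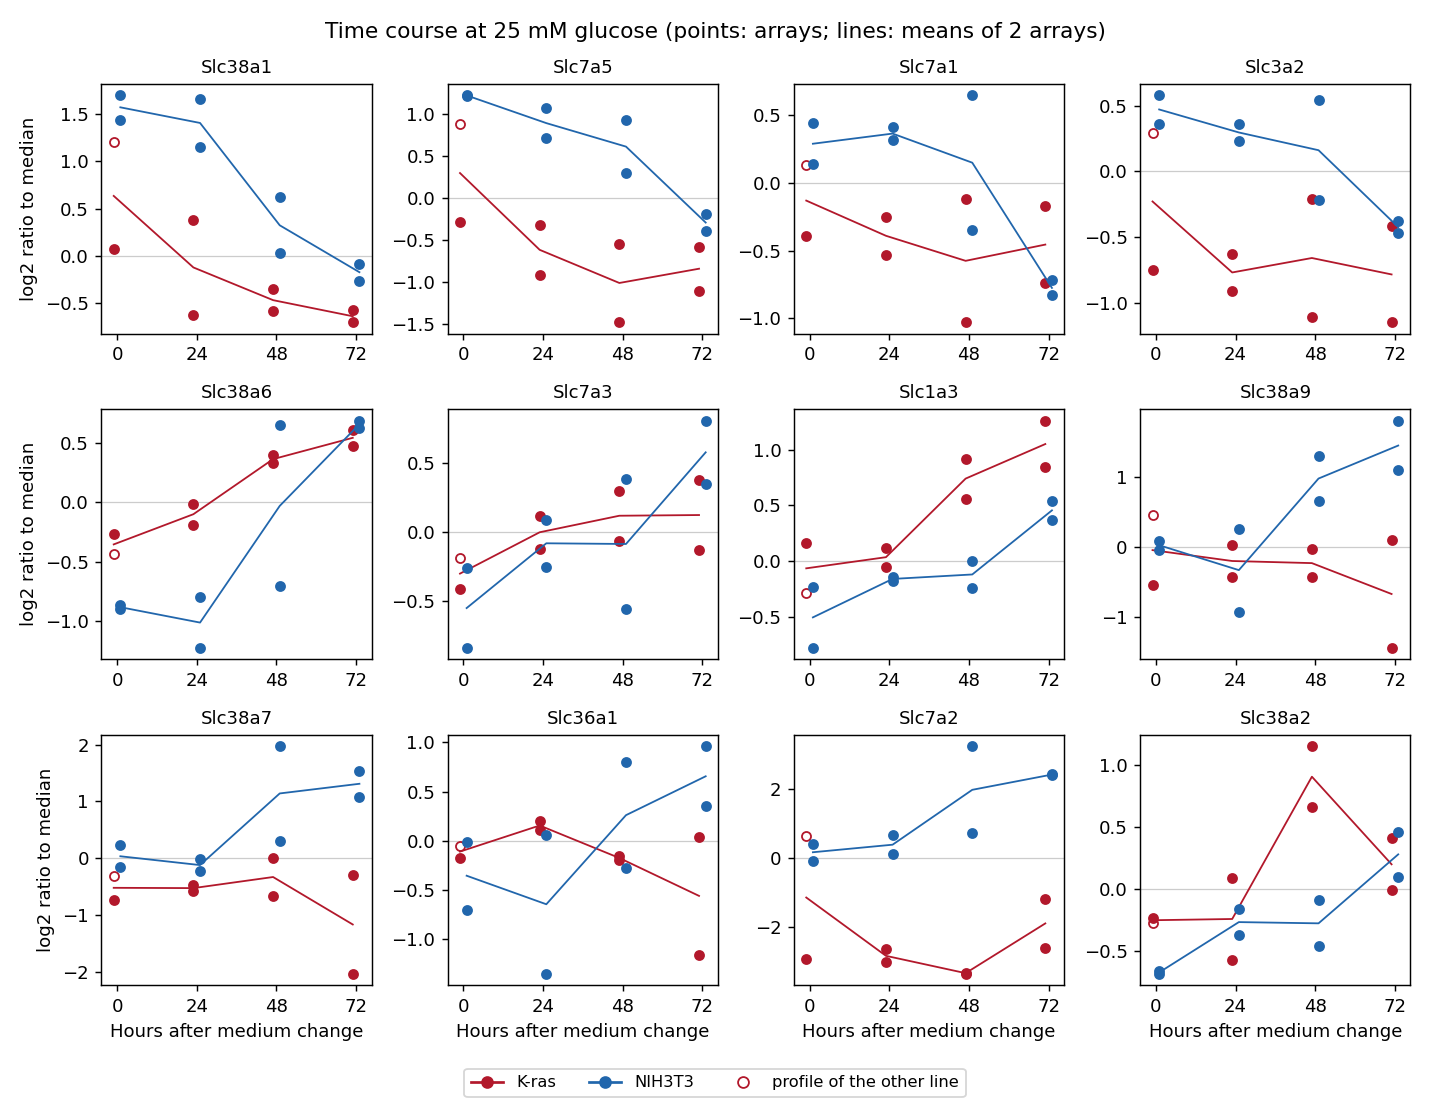
Log2 ratio to median over time at 25 mM glucose for 12 transporter genes in K-ras and NIH3T3, with points for arrays and lines through the means of 2 arrays. In NIH3T3, Slc38a1 ends at -0.26 and -0.08 and Slc38a6 at 0.69 and 0.63.

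At low glucose no member was called in any of the 7 comparisons of 1 mM with 25 mM. In the mean over both lines and 24, 48 and 72 h, limma called 0 members and 0% of all genes. At an unadjusted p of 0.05 it was 4 members higher, 2 lower and 5.04% of all genes. The largest differences were 0.83 ± 0.31 for Slc7a11, 0.62 ± 0.32 for Slc1a4, 0.55 ± 0.22 for Slc7a1 and 0.54 ± 0.22 for Slc3a2, with -0.40 ± 0.10 for Slc1a3 and -0.40 ± 0.14 for Slc7a7. Leaving out the 6 arrays also gave 0 called members and 11 at an unadjusted p, with 0.91 ± 0.25 for Slc7a11 and 0.78 ± 0.22 for Slc7a1, where 0.357% of all genes were called. NIH3T3 1 mM 24 h has no array left in that fit.

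In K-ras cells at 72 h, Slc7a11 was 0.81 and 2.80 at 1 mM and -0.57 and -0.41 at 25 mM. Both low-glucose arrays were above the others, and the lower one was replicate 1, which had the NIH3T3 profile. The same holds for the lower value at 1 mM of Slc1a4, Slc3a2, Slc7a1 and Slc1a3 here. The difference was 2.30 ± 0.77 (adjusted p = 0.180), and the other probe set gave 0.95. Slc1a4, the exchanger ASCT1, was 0.30 and 2.11 at 1 mM and -1.63 and -0.50 at 25 mM (difference 2.27 ± 0.77, adjusted p = 0.184). Its 3 probe sets ranged from -0.06 to 2.27. Slc3a2 was 0.12 and 0.94 at 1 mM and -0.42 and -1.15 at 25 mM, and Slc7a1 was 0.07 and 1.42 at 1 mM and -0.17 and -0.74 at 25 mM. Slc1a3 was lower, at -0.31 and 0.04 at 1 mM and 1.26 and 0.84 at 25 mM (difference -1.19 ± 0.24, adjusted p = 0.0545). Its probe sets ranged from -1.19 to 0.03. Slc38a10 was -0.63 and -0.44 at 1 mM and 0.66 and 0.03 at 25 mM (difference -0.88 ± 0.27, adjusted p = 0.154). At 25 mM, -1.63 of Slc1a4, 1.26 of Slc1a3 and 0.66 of Slc38a10 were from replicate 1, the array that stood apart. In this comparison limma called 0 members and 0.181% of all genes, and at an unadjusted p of 0.05 it was 9 members and 15.3% of all genes. In the fit without the 6 arrays, Slc7a11 passed at 3.29 ± 0.61 (adjusted p = 0.0103), where 3.74% of all genes were called, and Slc1a4 was at 3.18 ± 0.87 (adjusted p = 0.0643). That value sets the single array K-ras 1 mM 72 h replicate 2 against both arrays at 25 mM, among them the one that stood apart.

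In NIH3T3 at 72 h, Slc7a11, Slc7a1, Slc7a5 and Slc3a2 were highest on replicate 2 at 1 mM. Slc7a11 was -0.21 and 0.88 at 1 mM and -0.69 and -0.58 at 25 mM (difference 0.97 ± 0.77). Slc7a1 was 0.08 and 1.31 at 1 mM and -0.83 and -0.72 at 25 mM (difference 1.47 ± 0.53, adjusted p = 0.628). Slc7a5 was 0.56 and 1.70 at 1 mM and -0.19 and -0.39 at 25 mM (difference 1.42 ± 0.52, adjusted p = 0.641). Slc3a2 was 0.06 and 1.51 at 1 mM and -0.38 and -0.47 at 25 mM (difference 1.21 ± 0.53). Slc38a1 was 0.82 and 0.67 at 1 mM and -0.26 and -0.08 at 25 mM, with close replicates (difference 0.91 ± 0.46, adjusted p = 0.778). Slc38a9 was lower, at -0.37 and 0.63 at 1 mM and 1.80 and 1.09 at 25 mM (difference -1.32 ± 0.58, adjusted p = 0.694). Its 7 probe sets ranged from -1.32 to 0.09. Here limma called 0 members and 0.011% of all genes, and at an unadjusted p of 0.05 it was 5 members and 6.73% of all genes.

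At 24 and 48 h the low-glucose comparisons also called 0 members in limma. At an unadjusted p of 0.05 there were 0 in K-ras at 24 h, 3 in K-ras at 48 h, 4 in NIH3T3 at 24 h and 1 in NIH3T3 at 48 h, against 0.643%, 4.17%, 16.1% and 1.36% of all genes. At an adjusted p, 0.0055% of all genes were called in NIH3T3 at 24 h and 0% in the other three. In NIH3T3 at 24 h both low-glucose arrays had the K-ras profile, so there the parts of glucose and of the line cannot be told apart. Slc43a3 was 1.10 and 0.41 at 1 mM and -0.44 and -0.91 at 25 mM in that comparison, and Slc38a1 was -0.10 and -0.03 at 1 mM and 1.66 and 1.15 at 25 mM. In K-ras at 48 h, Slc1a3 was -0.40 and 0.00 at 1 mM and 0.92 and 0.56 at 25 mM (difference -0.94 ± 0.24, adjusted p = 0.918). Slc7a2 had a difference of 2.75 ± 1.31 there, and 1.69 ± 1.06 without the array that had the NIH3T3 profile.

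High values of Slc7a11, Slc1a4, Slc3a2 and Slc7a1 fell on few arrays. For Slc1a4, Slc3a2 and Slc7a1, the 3 highest of the 28 arrays were K-ras 1 mM 72 h replicate 2, NIH3T3 1 mM 24 h replicate 1 and NIH3T3 1 mM 72 h replicate 2. Their values in this order were 2.11, 1.43 and 2.04 for Slc1a4, 0.94, 1.11 and 1.51 for Slc3a2, and 1.42, 1.18 and 1.31 for Slc7a1. Slc7a11 was 2.80, 2.46 and 0.88 on these arrays. The last was not among its 3 highest, as NIH3T3 25 mM 48 h replicate 1 was at 1.02 and K-ras 1 mM 48 h replicate 2 at 0.99. The same 3 arrays had the highest medians over 27 measured genes of the integrated stress response, at 0.90, 0.92 and 1.20. That list holds ATF4 targets such as Ddit3 and Asns, and on the other 25 arrays its median was 0.34 or below. Its genes differed in this. On the 3 arrays, in the same order, Ddit3 was 4.01, 4.05 and 4.17, and Asns -0.02, 0.11 and 0.62. NIH3T3 1 mM 24 h replicate 1 had the K-ras profile. The replicates of these 3 arrays were lower. The list median was 0.30 for K-ras 1 mM 72 h replicate 1 and -0.50 for NIH3T3 1 mM 24 h replicate 2. For NIH3T3 1 mM 72 h replicate 1 it was -0.03. The 9 arrays at 1 mM other than the highest 3 lay between -0.52 and 0.31. The arrays were singled out after their values were seen, and no test was made. In K-ras at 72 h, the median difference of the list was 1.10 with 0 genes called (limma; 11 at an unadjusted p of 0.05), and 1.35 with 1 called without the 6 arrays.

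**Figure D4:**
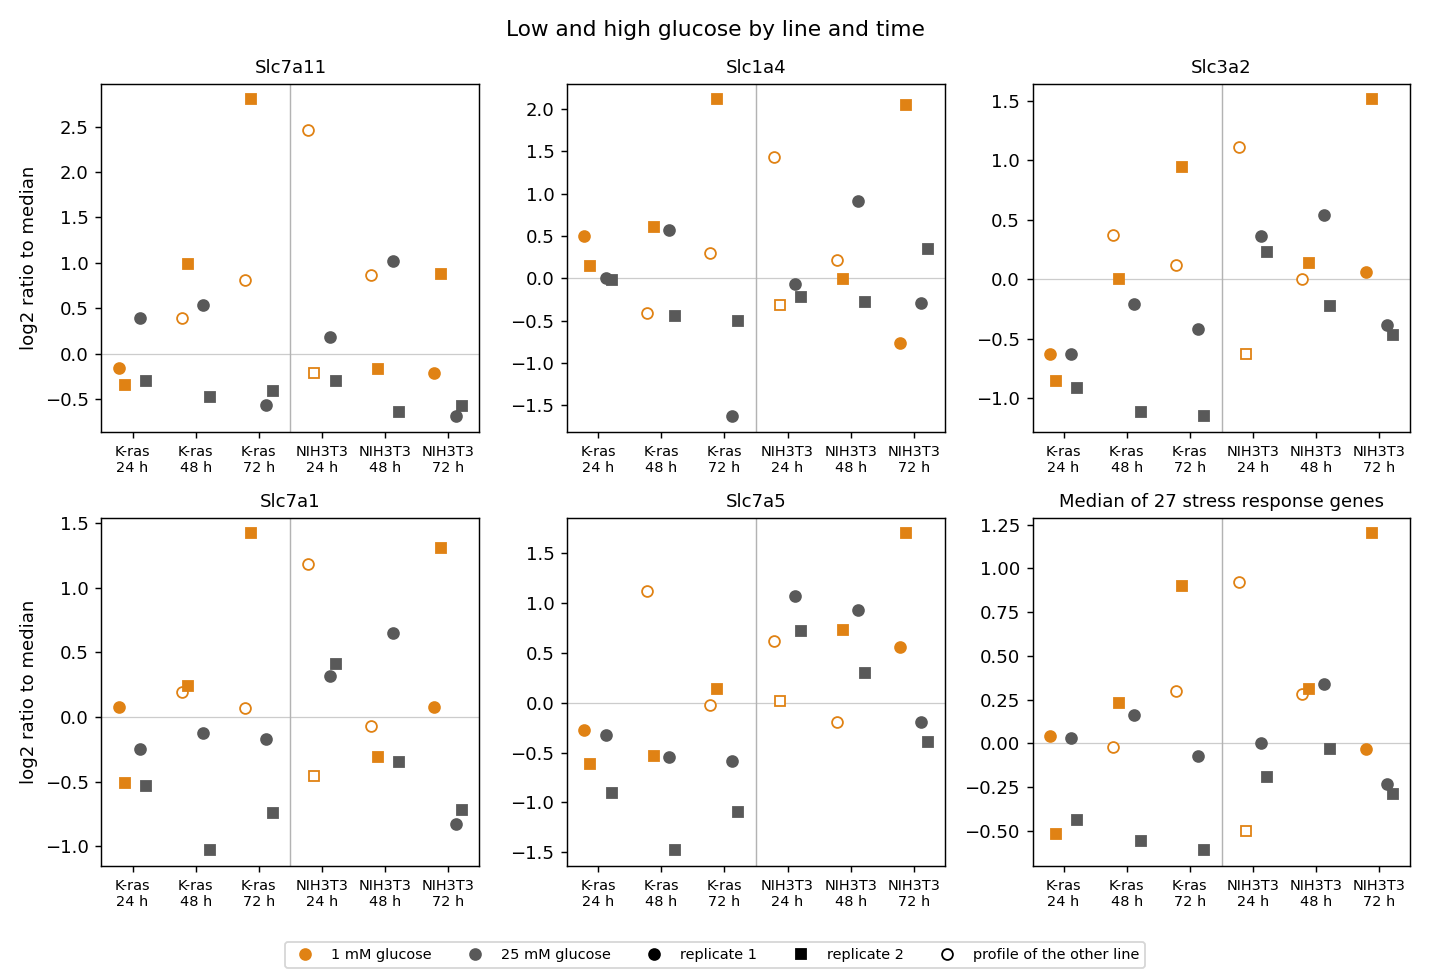
Log2 ratio to median at 1 mM and 25 mM glucose by line and time for Slc7a11, Slc1a4, Slc3a2, Slc7a1 and Slc7a5, and the median over 27 genes of the integrated stress response. For the last panel, 3 arrays at 1 mM reach 0.90, 0.92 and 1.20 while their replicates lie at 0.30 or below.

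Other genes of amino acid handling were counted from lists of the stress response, of amino acid sensing, of carriers in other families and of glutathione metabolism. In the K-ras and NIH3T3 comparison at 25 mM over time, the stress response list had 1 gene higher and 3 lower of 27, with a median of -0.10, where 5.67% of all genes were called in each direction. Cebpb was higher (1.00 ± 0.30), and Herpud1 (-1.53 ± 0.38) and Asns, asparagine synthetase (-0.59 ± 0.17), were lower. The sensing list had 3 higher and 1 lower of 34, with a median of -0.06. Sesn3, a sestrin that restrains mTORC1, differed by 1.27 ± 0.30, Eif2ak4, the kinase GCN2 that reads uncharged tRNA, by 0.96 ± 0.20, and Castor1, an arginine sensor, by -0.82 ± 0.19. Carriers of other families had 1 higher and 2 lower of 25, with a median of -0.09. These were the creatine carrier Slc6a8 (1.57 ± 0.30), the neutral amino acid carrier Slc6a15 (-1.33 ± 0.33) and the mitochondrial ornithine carrier Slc25a15 (-1.04 ± 0.29). The glutathione list had 4 higher and 0 lower of 16, with a median of 0.01, among them Ggct (1.17 ± 0.25) and Gclm, a subunit of glutamate-cysteine ligase (1.02 ± 0.27). In the fit without the 6 arrays the counts higher and lower were 2 and 4, 5 and 3, 1 and 4, and 4 and 1, in the same order of lists, where 17.9% of all genes were called.

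For NIH3T3 at 72 h against 0 h, the sensing list had 5 genes higher and 1 lower of 34, with a median of 0.48, against -0.07 for all genes, of which 3.68% were called higher and 1.84% lower. Sesn1 differed by 3.26 ± 0.78, Sesn3 by 2.72 ± 0.61 and Mlst8, a subunit of mTOR complexes, by -1.31 ± 0.28. The stress response list had 0 higher and 4 lower of 27, with a median of -0.41, among them the one-carbon enzymes Mthfd2 (-2.25 ± 0.52) and Shmt2 (-2.09 ± 0.36) and the branched-chain aminotransferase Bcat1 (-2.13 ± 0.40). The glutathione list had 3 higher and 1 lower of 16, and carriers of other families 0 in either direction of 25 (limma; 2 at an unadjusted p of 0.05). In the fit without the 6 arrays the counts were 6 higher and 1 lower for sensing, 1 higher and 5 lower for the stress response, 4 each way for glutathione, and 0 for other carriers (5 at an unadjusted p of 0.05), where 10.7% of all genes were called.

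The genes most like the members with the largest SD were named by Pearson's r over the 28 arrays, without a test because they were picked for it. The arrays fall into profiles of 14 each, so r is given within the K-ras and then the NIH3T3 profile. For Slc7a2 it was 0.94 and 0.80 with Stbd1, 0.77 and 0.87 with Socs2, and 0.80 and 0.78 with Snx10. For Slc38a4 it was 0.96 and 0.88 with Tmem43, 0.96 and 0.86 with Tesk2, and 0.96 and 0.83 with Acsl5. For Slc43a3 it was 0.44 and 0.84 with Smim3, 0.34 and 0.58 with Nrcam, and 0.79 and 0.17 with H2aw.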

How the data were processed

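Total RNA of 28 cultures was measured on Affymetrix arrays, 1 array per culture. Trizol, RNeasy and one-cycle biotin labelling are named per the labels' protocols. RMA is named per the submitters' processing notes, without a version. After turning the deposited log2 values linear, each of 45101 probe sets had a median of 1 (tolerance 0.001), so the authors' table holds ratios to that median and signal over background is unknown.

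Gene symbols came from the platform annotation: 34945 probe sets had 1 symbol and 932 several, 1 of the latter with a member symbol, which was left out. Of the 40 members, 21 had more than 1 probe set. All 40 matched the RefSeq gene table. The members, lists and rules were chosen with earlier results of these data known. Named were members called in any comparison, up to 3 with the largest difference in each direction, a set fixed by name, and up to 3 called genes of each other list. Groups follow the labels, and the number of arrays limits the precision.

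limma 3.58.1 in R 4.3.3 was fitted with 1 coefficient for each of 14 groups (14 residual degrees of freedom), and p-values were two-sided and adjusted by Benjamini-Hochberg over 18193 genes within each comparison. Errors are standard errors from limma. p-values measure the spread between arrays labelled as biological replicates. The fit was tested on simulated data. A planned filter on dim genes needed a level and was replaced by a filter on SD. Alternatives were quantile normalisation, that filter, the mean of a gene's probe sets, only the arrays compared, the replicate block, the bioC block, and leaving out the 6 arrays or each array. Arrays were assigned a profile by 2 clusters on the 500 genes with the largest SD, members left out. Same-numbered arrays had no common direction of deviation over the groups. Over 91 pairs of groups their correlation ran from -0.68 to 0.69, with a median of -0.04, and exceeded 0.1 in 23. Some pairs of groups thus shared deviations, in either sign, and replicate numbers were not taken as pairs. Python 3.11.15, numpy 2.4.6, pandas 2.3.3 and matplotlib 3.10.9 were used.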

Additional observations from a re-analysis of the deposited data

Results flagged for a closer look

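For 5 members every array at 1 mM lay on one side of every array at 25 mM in K-ras and on the opposite side in NIH3T3, at the same time. Of all genes, 19.4% did so at 1 of the 3 times or more: 7.89% at 24 h, 5.66% at 48 h and 7.27% at 72 h. The difference between the lines was not tested for any member. At 24 h, the 1 mM minus 25 mM difference of Slc36a2 was 0.14 in K-ras and -0.46 in NIH3T3, and that of Slc43a3 was -0.21 in K-ras and 1.43 in NIH3T3. Both NIH3T3 arrays at 1 mM and 24 h had the K-ras profile. At 48 h, the difference of Slc36a3 was 0.25 in K-ras and -0.23 in NIH3T3, and that of Slc7a6 was 0.75 in K-ras and -0.56 in NIH3T3. Replicate 1 of each 1 mM group at 48 h had the profile of the other line. At 72 h, the difference of Slc1a2 was -0.50 in K-ras and 0.39 in NIH3T3, and replicate 1 of K-ras at 1 mM had the NIH3T3 profile. The part of these arrays was not tested.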

How the results depend on the processing

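The share or number of all genes called in the same fit is given in parentheses. In the mean line difference at 25 mM, 7 members were called (11.3%), 11 without the 6 arrays (17.9%), 0 with the bioC block (0%), and 6 to 9 when 1 array was left out (961 to 2823 genes). At 24 h it was 0 over all arrays (0.066%), 5 with only the arrays compared (5.65%) and 4 without the 6 (6.29%). At 48 h it was 4 without the 6 (5.49%). At 72 h it was 1 (0.726%), against 0 with quantile normalisation (0.0495%), 0 with the replicate block (0.214%), 0 with the bioC block (0.0055%), 5 without the 6 (8.89%), and 0 to 10 when 1 array was left out (2 to 3014 genes). At 1 mM and 72 h it was 3 without the 6 (8.09%). For NIH3T3, 72 against 0 h gave 4 (5.52%), against 1 with quantile normalisation (3.62%), 2 with the mean of probe sets (6.12%), 15 with only the arrays compared (27%) and 0 to 1 when 1 array was left out (20 to 180 genes). From 24 to 72 h it gave 1 (6.15%), against 2 with the SD filter (13%), 8 with only the arrays compared (19.5%), 3 without the 6 (10.5%), 2 with the bioC block (6.59%) and 0 to 2 when 1 array was left out (7 to 422 genes). From 0 to 48 h the range was 0 to 2 (0 to 445 genes). Glucose in K-ras at 72 h gave 1 without the 6 (3.74%) and 0 to 6 when 1 array was left out (0 to 2517 genes), the K-ras change from 24 to 72 h 0 to 6 (0 to 2321 genes) and the test of different changes 0 to 6 (0 to 2052 genes). The upper ends 10, 6, 6 and 6 all came without K-ras 25 mM 72 h replicate 2, which leaves the array that stood apart alone, and the lone array is then assumed to vary like the other groups. The replicate block changed no other count of members by over 1.5 times. The fit without the 6 arrays has fewer arrays and another spread, and holds no NIH3T3 group at 1 mM and 24 h. The cause of these changes was not tested.

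Of 119 named values, 7 changed sign with the bioC block, 2 without the 6 arrays, 2 with the mean of probe sets, and none with quantile normalisation, the SD filter, only the arrays compared or the replicate block. With the bioC block these were the line differences of Slc43a3 (-1.02), Slc7a2 (2.03) and Slc7a5 (0.10) at 0 h, of Slc43a3 (-0.07) and Slc7a2 (0.11) at 24 h, of Slc43a3 over time (-0.11), and the glucose difference of Slc43a3 in NIH3T3 at 48 h (-0.01). Without the 6 arrays they were the glucose differences of Slc43a3 in K-ras at 72 h (0.22) and in NIH3T3 at 48 h (-0.07). With the mean of probe sets they were Slc1a4 between lines at 1 mM (-0.25) and Slc38a9 in NIH3T3 from 0 to 24 h (0.08). Leaving out 1 array reversed 12 values. The ranges for glucose were -1.34 to 0.22 for Slc43a3 in K-ras at 72 h, -0.17 to 1.58 for Slc1a4 and -0.15 to 2.52 for Slc7a11 in NIH3T3 at 24 h, -0.26 to 1.87 for Slc1a5 and -0.07 to 1.69 for Slc43a3 in NIH3T3 at 48 h, and -0.68 to 0.02 for Slc38a4 in the mean. Between lines they were -0.83 to 1.97 for Slc1a4 and -3.55 to 0.69 for Slc38a4 at 1 mM, and -3.11 to 0.46 for Slc7a2 at 0 h. Over time they were -1.54 to 0.09 for Slc38a4 in K-ras and -0.95 to 0.24 for Slc38a9 in NIH3T3 from 0 to 24 h.
Signal over background is unknown, so a low ratio may lie near background, and groups of 2 arrays limit the precision throughout.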
